A study of Mus musculus with 10 samples.

Results

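Protein kinase A is the main kinase through which cyclic AMP acts in neurons. It consists of regulatory subunits, which hold catalytic subunits inactive until cyclic AMP binds to them. A-kinase anchor proteins grip the regulatory subunits and keep the enzyme beside its substrates, often together with a phosphatase or a phosphodiesterase. In the cortex this arrangement is known for its part in synaptic plasticity and memory. AKAP9 is one of the largest anchors. Its long forms sit at the centrosome and the Golgi, where they help to organise microtubules, and a short form, yotiao, binds the NMDA receptor and phosphatase 1.

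The transcripts described here were Akap9 and 9 other genes of this system, namely the anchors Akap1, Akap8 and Akap12, the catalytic subunits Prkaca and Prkacb, and the regulatory subunits Prkar1a, Prkar1b, Prkar2a and Prkar2b. The 9 other genes were listed by function, with earlier results of these data known, and Akap9 was chosen on its difference between the groups. All probe sets that the platform annotation assigned to these genes alone were taken, which gave 16 of the 22626 non-control probe sets on the array. Akap9 was read by 2 of them and 8 of the 9 other genes by 14, while Prkar2b had no probe set in that annotation and was not analysed here. Since the study's table of differing genes, made from these arrays, put Akap9 on the list, its difference between the groups is a description and carries no test.

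Cerebral cortex RNA came from 10 male mice at 6 months of age, with 1 array of individual cortex per mouse. Of these, 5 were labelled *p97FE65* wild type and 5 *p97FE65* null, and the study describes them as littermate pairs. The null mice lack the full-length isoform of FE65, an adaptor of the amyloid precursor protein, but still express the rest of the FE65 transcript. The allele was made in R1 embryonic stem cells, which come from another strain than C57Bl/6J, to which the mice were backcrossed for 10 generations. Sequence of the stem cell strain can stay linked to the allele on chromosome 7 through such a backcross. The study found such sequence in its null mice, at Gprc5b and at Homer2. None of the 10 genes lies on that chromosome. In the annotation used, Akap9 and Prkar1b are on chromosome 5, Akap1 and Prkar1a on 11, and the others on 3, 8, 9, 10, 12 and 17. This covers the 10 genes only, not the further genes and markers described below, of which Mag lies on chromosome 7.

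The values are log2 GC-RMA expression values, in which a step of 1 is a doubling. They allow comparison of a probe set between mice but not of different probe sets with each other. Array medians lay between 3.01 and 3.14 and correlations between arrays between 0.994 and 0.999. FE65 itself (Apbb1) lay between 10.85 and 11.13 in the mice labelled wild type and between 10.80 and 11.37 in those labelled null at probe set 1423892_at, and between 10.98 and 11.23 and between 11.30 and 11.51 at 1423893_x_at. Both lie outside the deleted exon, so neither reads the deletion itself. Both were higher in the mice labelled null, by 0.11 (SE 0.10) and 0.26 (SE 0.06). A note to the study's tables gives them as lower in null mice. For Akap9 too the difference under GEO's labels runs opposite to the study's tables, in which it stands among the genes higher in null mice. The sizes were the same as the study's, 1.55-fold for Akap9 1455151_at and 1.08-fold and 1.19-fold for the FE65 probe sets, with the direction reversed. Which genotype stands behind a label was not settled, so the mice are named by their labels. The labelled tissue was set against lists of marker genes by how many had a mean of at least 5 at their brightest probe set, as 34.6% of all probe sets did. This held for 3 of 4 measured neuronal markers (not Rbfox3, at 4.16), 2 of 3 of excitatory cortical neurons (not Camk2a, at 4.13) and 5 of 5 of inhibitory neurons. It also held for 4 of 5 astrocyte, 4 of 4 oligodendrocyte and 3 of 4 microglial markers. Among markers of tissue outside the cortex it held for 1 of 2 of striatal neurons (Rgs9, at 6.98) and 1 of 3 of choroid plexus (Ttr, at 6.29), and it held for 0 of 2 of red blood cells and 0 of 4 of endothelial cells. These counts do not rank cell types, since probe sets differ in their response.

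The sequence before the transcription start is shown for the members with the largest difference in each direction, Akap9 and Prkar1a. Prkar1a has several annotated starts, and the window shown is the one with the full element before the start. Each run holds the 250 bases before a RefSeq start in GRCm38.p6, on the plus strand, at chr5:3927936-3928185 for Akap9 and at chr11:109650699-109650948 for Prkar1a. The capitals mark matches to the cyclic AMP response element TGACGTCA and to its shorter form TGACG, the letters read by CREB, a transcription factor that protein kinase A phosphorylates.
Akap9: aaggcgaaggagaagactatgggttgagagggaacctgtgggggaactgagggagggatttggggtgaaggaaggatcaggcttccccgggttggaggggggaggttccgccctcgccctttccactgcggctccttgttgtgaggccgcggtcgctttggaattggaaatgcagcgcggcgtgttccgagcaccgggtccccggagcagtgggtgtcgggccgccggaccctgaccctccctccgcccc
Prkar1a: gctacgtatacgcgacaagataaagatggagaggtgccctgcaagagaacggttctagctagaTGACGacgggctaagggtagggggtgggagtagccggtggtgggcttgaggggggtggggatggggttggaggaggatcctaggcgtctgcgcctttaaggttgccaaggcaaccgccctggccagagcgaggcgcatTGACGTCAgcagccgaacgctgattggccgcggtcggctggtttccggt
The Akap9 run held no match. The Prkar1a run held the full element with its first base at position -49 from the start and a shorter match at -187. Both strands were searched over windows from 250 bases before to 50 after a start, so that each full element also counts as a match to the shorter form. Of 24 such windows of 9 member genes, 2 held the full element (8.33%), both of them overlapping windows of Prkar1a with the same site, and 7 held the shorter form (29.2%). Over all 32851 windows of the genome the shares were 1.79% and 20.8%. Akap12 was not among the windows searched.

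Akap9 was lower in the mice labelled null at both of its probe sets. At 1455151_at the mice labelled wild type were at 4.97, 5.37, 5.97, 5.36 and 5.35 (log2, replicates 1 to 5). In the mice labelled null the values at this probe set were 4.01, 5.05, 5.05, 4.74 and 5.02. All but replicate 1 of the former lay above all of the latter, so the groups overlapped by that mouse alone. Of the mice labelled null, 2 lay below all of those labelled wild type. The mean was 5.40 ± 0.36 (SD, n = 5 mice) in the group labelled wild type and 4.77 ± 0.45 (SD, n = 5) in the group labelled null. The difference, labelled null minus labelled wild type, was -0.63 (SE 0.23), a 1.55-fold lower level, with a 95% confidence interval from -1.13 to -0.13. Because the gene was picked for this difference, the interval gives its precision and is no evidence for it. Of all 22626 probe sets, 17 had a difference larger in size, 12 of them below 0, a place that follows from the choice of the gene.

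The lowest mouse, null replicate 1, and the highest, wild type replicate 3, carried a part of this difference. Without the former it was -0.44 and without the latter -0.49. Leaving out any other mouse gave values from -0.74 to -0.62. The mean of this probe set over all mice, 5.09, exceeded that of 65.9% of probe sets.

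Probe set 1437082_at read Akap9 near the bottom of the scale. The mice labelled wild type were at 2.24, 2.28, 2.06, 2.16 and 2.03, and those labelled null at 1.78, 2.06, 1.94, 2.12 and 1.91. The group means were 2.15 ± 0.11 (SD, n = 5) and 1.96 ± 0.13 (SD, n = 5), and the difference was -0.19 (SE 0.07, 95% confidence interval from -0.35 to -0.03). With only 28.5% of all probe sets below its mean, this probe set lay in the range where little signal exceeds background. Null replicate 1 was the lowest mouse at both probe sets, but the mice did not otherwise keep their order. Wild type replicate 3, the highest at 1455151_at, was below its group mean at 1437082_at. Over the 10 mice, the deviations from the group means had a Pearson r of 0.14 between the probe sets (Spearman's rho 0.21).

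**Figure D1:**
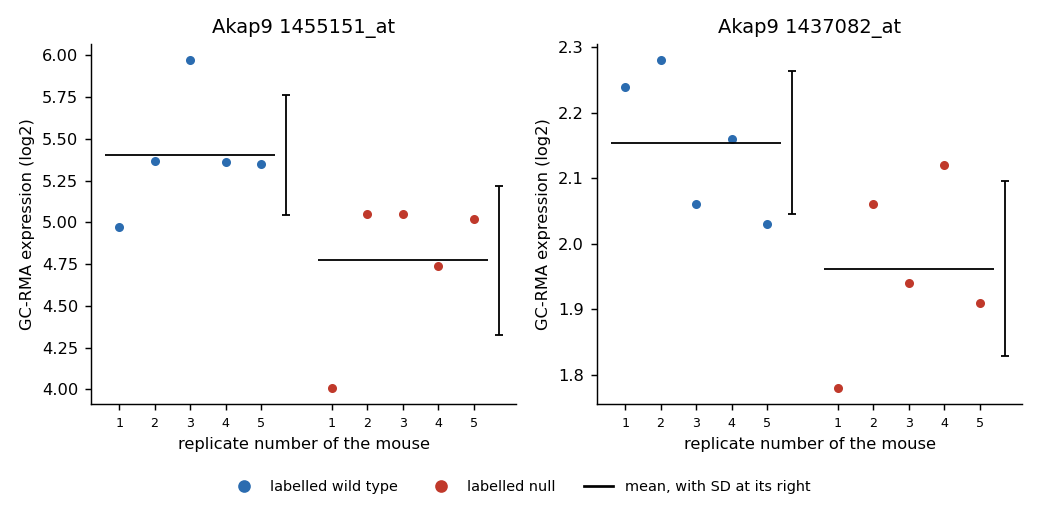
GC-RMA expression (log2, vertical axis) of the Akap9 probe sets 1455151_at and 1437082_at, where each point is a mouse at its replicate number (blue, labelled wild type; red, labelled null), the mean as a line and the SD as a bar beside it. At 1455151_at the mice labelled null lie between 4.01 and 5.05 and those labelled wild type between 4.97 and 5.97, and each panel has its own scale.

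Some cell type markers lay lower in the same group as Akap9. Of 5 oligodendrocyte markers, 4 had a probe set (Mbp, Mog, Mag and Cldn11), and each was lower in the mice labelled null at its brightest one, by differences from -0.52 to -0.17. Over all 11 probe sets of these genes, 2 were lower at an unadjusted limma p under 0.05 (Mbp 1433532_a_at at -0.23 and Cldn11 at -0.52). At the same threshold 1 was higher (the dim Mbp 1425263_a_at at 0.20), and 0 passed the adjusted threshold. Together these calls made up 27.3% of the 11, against 3.67% of all probe sets. The groups did not overlap at 1 of the 11, Mbp 1433532_a_at, as at 0.623% of all probe sets. The 8 probe sets of Mbp ran from -0.23 to 0.20. The mean level of the markers per mouse, each by its brightest probe set, ran from 8.72 to 9.35 in the group labelled wild type and from 8.44 to 8.82 in the group labelled null. The 4 general neuron markers had mean levels from 9.73 to 9.98 and from 9.50 to 9.85, with 3 of the 4 lower in the mice labelled null. Of their 5 probe sets, 2 were lower at an unadjusted limma p under 0.05 (40%, against 3.67% of all probe sets), and 0 passed the adjusted threshold. These were the dim Rbfox3 at -0.37 (SE 0.12) and Tubb3 at -0.20 (SE 0.07). Of 5 excitatory neuron markers, 3 had a probe set (Camk2a, Neurod6 and Tbr1), with mean levels from 6.70 to 7.42 and from 6.59 to 7.02. All 3 were lower in the mice labelled null, by differences from -0.48 to -0.15, and 0 had an unadjusted p under 0.05. The 5 inhibitory neuron markers ran from 9.21 to 9.42 and from 9.13 to 9.39, with 1 higher and 4 lower. The 5 astrocyte markers ran from 7.40 to 7.58 and from 7.36 to 7.75, with 3 higher and 2 lower. The 4 microglial markers ran from 5.96 to 6.06 and from 5.78 to 6.13, with 2 higher and 2 lower. In tissue RNA, fewer cells of a type and less RNA per cell cannot be told apart. The part of these markers in the Akap9 difference was not tested.

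The other anchors did not differ between the groups beyond the spread between mice. Akap1, which ties the kinase to the outer membrane of mitochondria, lay between 7.03 and 7.39 with a median of 7.07 in the mice labelled wild type at its brighter probe set, 1449019_at. In those labelled null it lay between 6.88 and 7.28 with a median of 7.05. The difference was -0.07 (SE 0.09, 95% confidence interval from -0.27 to 0.13, limma adjusted p = 0.999). Wild type replicate 3 stood above its group at 7.39, while the other mice of that group lay between 7.03 and 7.07. The dim Akap1 probe set 1418279_a_at differed by 0.03 (SE 0.09).

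Akap8, a nuclear anchor that binds chromatin, was read by 2 probe sets. At 1433669_at it was at 9.69, 9.57, 9.74, 9.72 and 9.68 in the mice labelled wild type and at 9.67, 9.66, 9.91, 9.59 and 9.44 in those labelled null. The mice labelled null spread more widely and reached both above and below the others. The difference was -0.03 (SE 0.08, 95% confidence interval from -0.20 to 0.14, limma adjusted p = 0.999), and at 1450983_at it was -0.01 (SE 0.09). Akap12, also called gravin, an anchor beneath the plasma membrane that binds adrenergic receptors, was at 7.58, 7.43, 7.49, 7.36 and 7.54 in the mice labelled wild type. In those labelled null it was at 7.20, 7.49, 7.45, 7.20 and 7.63, a difference of -0.09 (SE 0.09, 95% confidence interval from -0.28 to 0.11, limma adjusted p = 0.999). Null replicates 1 and 4 lay below all other mice, and null replicate 5 above them. For these 3 anchors, the intervals held no difference beyond 0.28 in either direction.

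The catalytic subunits, which transfer the phosphate, had close means in both groups and a wide spread between mice at some probe sets. Prkaca was at 9.58, 8.43, 9.0, 9.35 and 9.07 in the mice labelled wild type and at 9.28, 8.83, 9.04, 9.38 and 9.0 in those labelled null (1450519_a_at). Wild type replicate 2 was the lowest of all mice. The difference was 0.02 (SE 0.19, 95% confidence interval from -0.41 to 0.45, limma adjusted p = 0.999), and it was -0.14 without wild type replicate 2.

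Prkacb, the catalytic form abundant in brain, was at 11.73, 11.88, 11.80, 11.91 and 11.80 at its brighter probe set, 1420611_at, in the mice labelled wild type. The mice labelled null were at 11.59, 11.97, 11.70, 11.79 and 11.94. The groups overlapped throughout, with a difference of -0.02 (SE 0.08, 95% confidence interval from -0.19 to 0.14, limma adjusted p = 0.999). The other Prkacb probe set, 1420610_at, spread far more, from 9.01 to 10.31 and from 9.09 to 10.52. Its difference was 0.21 (SE 0.28), with an interval from -0.40 to 0.83, the widest of the members after that of a Prkar1a probe set. Single mice moved it strongly: leaving out null replicate 4 gave 0.04 and wild type replicate 5 gave 0.06, while leaving out wild type replicate 4 gave 0.39 and null replicate 3 gave 0.40.

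Among the regulatory subunits, the probe sets of Prkar1a gave unlike differences, with intervals that overlapped. Prkar1a is the widely expressed type I subunit. At 1452032_at it was at 12.59, 12.63, 12.74, 12.94 and 12.64 in the mice labelled wild type and at 12.69, 12.70, 12.65, 12.74 and 12.78 in those labelled null. These values were nearly level, and the difference was 0.00 (SE 0.07, 95% confidence interval from -0.14 to 0.15, limma adjusted p = 0.999). At 1425550_a_at the mice labelled wild type were at 11.36, 9.46, 11.02, 11.23 and 10.62 and those labelled null at 11.48, 11.43, 10.73, 11.81 and 11.19. The low value of wild type replicate 2 set it apart from all other mice. The difference of 0.59 (SE 0.34) was the largest in size among the members other than Akap9, but its interval ran from -0.17 to 1.34 and it did not pass (limma unadjusted p = 0.113, adjusted p = 0.999; exact permutation test, two-sided, p = 0.151). Without wild type replicate 2 it was 0.27.

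Prkar1b, the type I subunit found mostly in neurons, was read by 3 probe sets. The brightest, 1434325_x_at, was at 13.37, 13.46, 13.56, 13.55 and 13.50 in the mice labelled wild type and at 13.29, 13.41, 13.61, 13.32 and 13.53 in those labelled null. The mice of both groups were interleaved, and the difference was -0.05 (SE 0.07, 95% confidence interval from -0.20 to 0.10, limma adjusted p = 0.999). The other Prkar1b probe sets differed by 0.06 (SE 0.07, 1416753_at) and 0.10 (SE 0.19, 1416754_at), and the latter ran from -0.05 to 0.23 as each mouse was left out. Prkar2a, a type II subunit, which is the type that most anchors bind, was near the bottom of the scale at 1427414_at. It lay between 2.21 and 2.92 in the mice labelled wild type and between 2.34 and 2.83 in those labelled null, with a difference of 0.07 (SE 0.13).

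**Figure D2:**
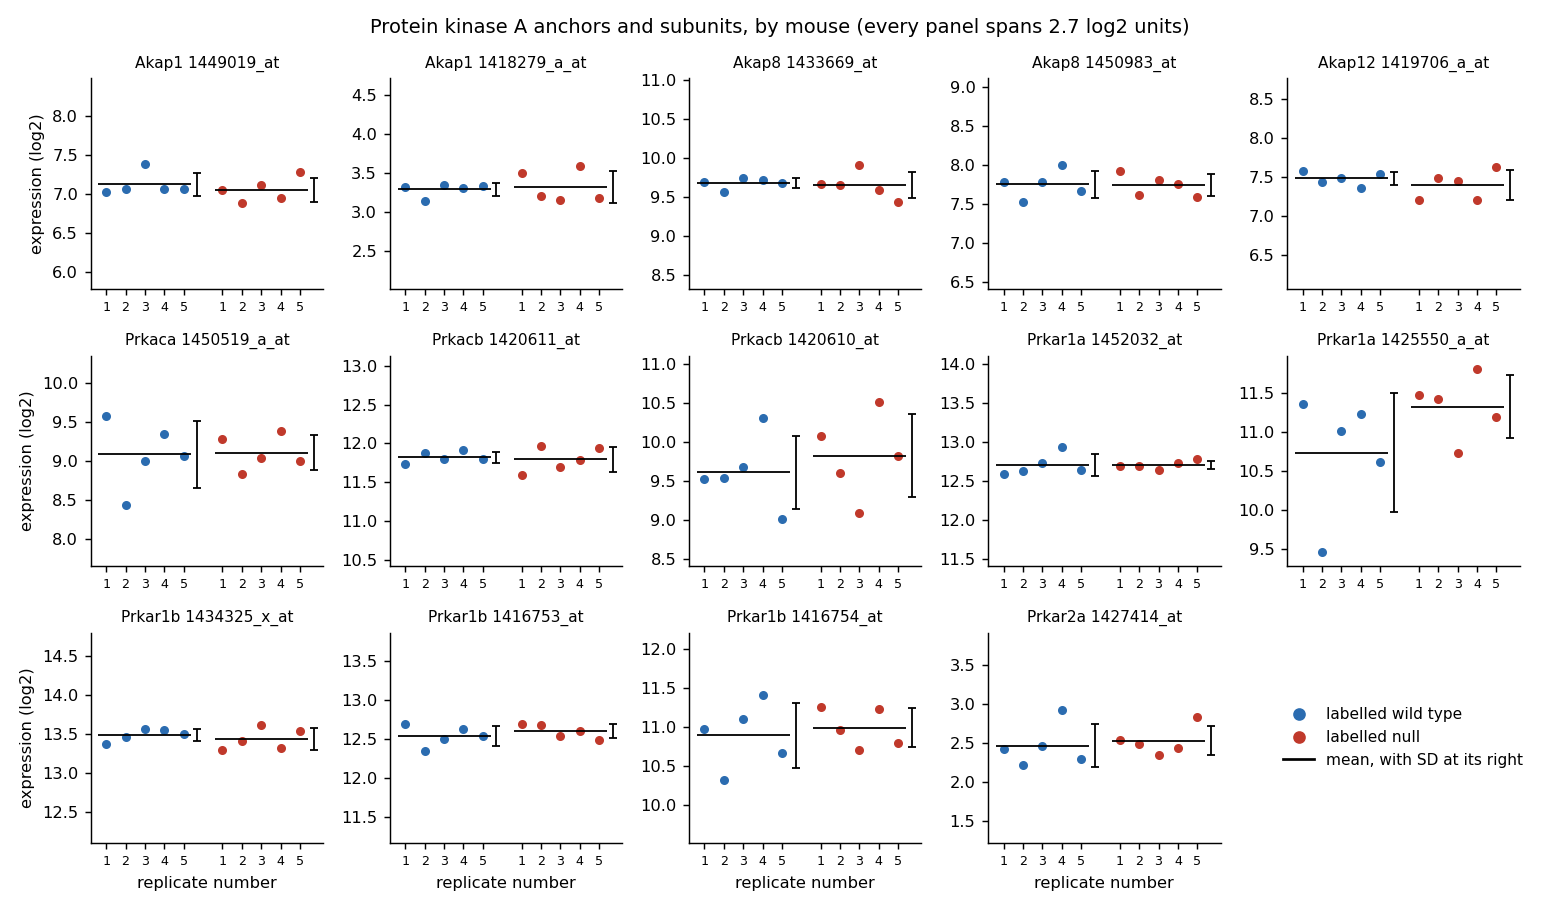
GC-RMA expression (log2, vertical axes, each spanning the same number of log2 units) of the 14 probe sets of the other anchors and subunits, where each point is a mouse at its replicate number (blue, labelled wild type; red, labelled null), the mean as a line and the SD as a bar beside it. The groups overlap in every panel, and wild type replicate 2 is the lowest mouse for Prkaca at 8.43 and for Prkar1a 1425550_a_at at 9.46.

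Of the 14 probe sets of the members other than Akap9, 0 passed a limma p of 0.05 adjusted over all 22626 probe sets, and 0 had an unadjusted p under 0.05. Over all probe sets, 0 passed as well (0%), and 3.67% had an unadjusted p under 0.05 (830 probe sets). Of all probe sets, 1.24% had such a p and were higher in the mice labelled null and 2.43% were lower (281 and 549 probe sets). This split depended on the scaling, with 524 higher and 420 lower after quantile normalization. The methods' t-test gave 3.39% of all probe sets and 0 of the 14. The median difference of the 14 was 0.01, against 0.00 over all probe sets, and they ran from -0.09 to 0.59. Groups that did not overlap made up 0.623% of all probe sets and 0 of the 16 probe sets of the members, those of Akap9 included. The smallest p that 5 mice against 5 allow in an exact permutation test is 0.00794.

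**Figure D3:**
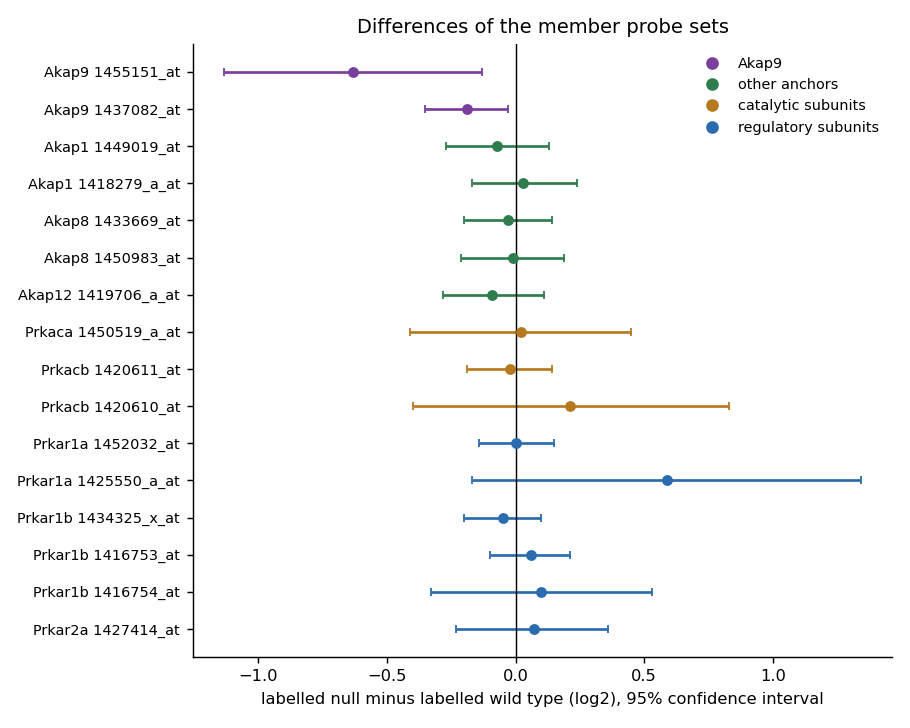
Mean of the mice labelled null minus mean of those labelled wild type (log2, horizontal axis) for the 16 probe sets, with 95% confidence intervals from limma as bars and the gene group as colour. The Akap9 probe sets lie at -0.63 and -0.19, and every interval of the 14 others includes 0, the widest being that of Prkar1a 1425550_a_at.

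Several member probe sets varied together from mouse to mouse, apart from the labels. Wild type replicate 2 was the lowest of the 10 mice at 7 of the 16 probe sets, and null replicate 1 at 4. Deviations of Prkar1a 1425550_a_at from the group means followed those of Prkar1b 1416754_at over the 10 mice (r = 0.87, rho = 0.83), and the relation was weaker without the 2 mice farthest from the median (r = 0.73). Between Prkar1a 1425550_a_at and Prkaca it was r = 0.85 (rho = 0.79), and 0.55 without the 2 mice farthest from the Prkaca median. The other Prkar1a probe set, 1452032_at, did not follow its partner closely (r = 0.38, rho = 0.22). It did vary with the dim Prkar2a 1427414_at (r = 0.86, rho = 0.76, and r = 0.83 without the 2 farthest mice). These pairs were picked among 120 after their values were seen and share the same arrays, so they are given with no test. Wild type replicate 2 also had the highest array median (3.14), and its Gapdh control probe set near the 5′ end stood furthest below that near the 3′ end, by -0.27 (log2), against -0.24 to 0.07 in the other mice. For Actb the same measure was -0.18 in that mouse, within the range of the others from -0.37 to 0.03. The part of these array properties in the spread was not tested.

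The genes whose deviations from the group means were most like those of Akap9 1455151_at were sought among 4920 genes with a mean of at least 5, each by its brightest probe set. The 5 highest Pearson correlations over the 10 mice were those of Sbno1 (r = 0.95), Malat1, a long noncoding RNA kept in the nucleus (r = 0.95), Slc35f5, a solute carrier (r = 0.94), Itsn2, a scaffold of endocytosis (r = 0.94), and Ttl, the tubulin tyrosine ligase (r = 0.94). Spearman's rho ranged from 0.77 for Slc35f5 to 0.99 for Malat1. Without the 2 mice farthest from the Akap9 median, r ranged from 0.83 for Malat1 to 0.91 for Itsn2. Malat1 was at 10.87, 11.09, 11.48, 10.99 and 10.95 in the mice labelled wild type and at 9.97, 10.91, 10.90, 10.78 and 10.68 in those labelled null. Like Akap9, it was highest in wild type replicate 3 and lowest in null replicate 1. These genes were picked for their likeness, so the correlations are a description. Among the members, the highest r with Akap9 1455151_at was that of Prkar1b 1434325_x_at (r = 0.75, rho = 0.61), but the other Prkar1b probe sets ran the other way (r = -0.48 for 1416753_at and -0.23 for 1416754_at).

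**Figure D4:**
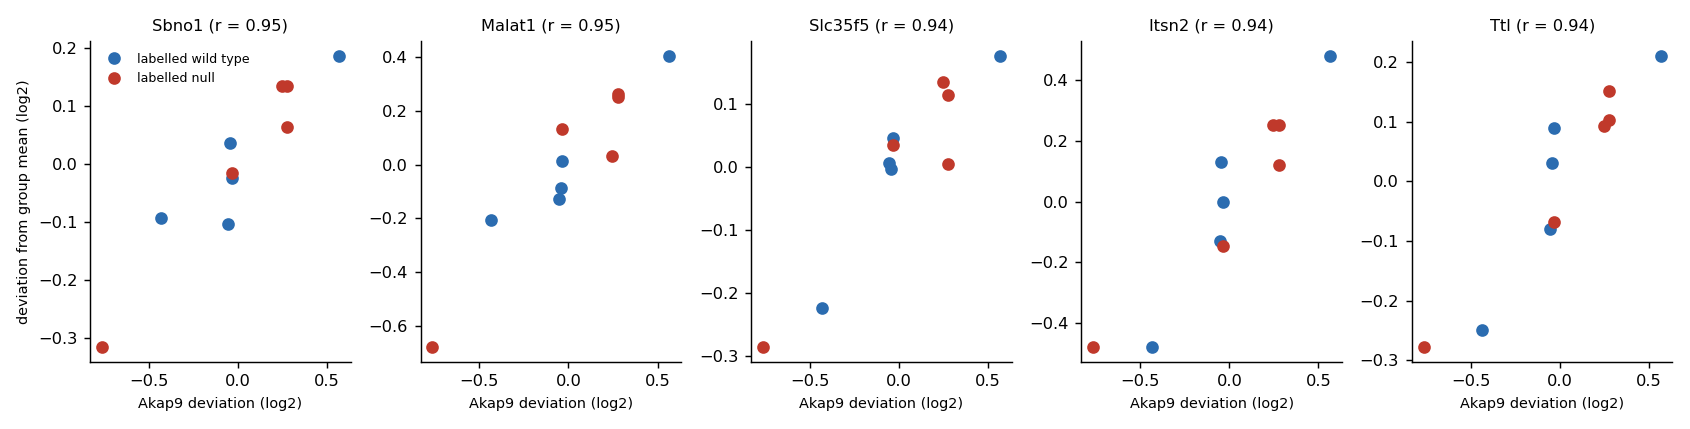
Deviation from the group mean (log2, vertical axes) of the 5 genes most like Akap9, against that of Akap9 1455151_at (log2, horizontal axes), with a point for each of the 10 mice (blue, labelled wild type; red, labelled null). The r over the 10 mice, 0.94 or 0.95, stands above each panel, and the same mouse lies at the lower left of every panel.

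Around the members, 91 further genes of the cyclic AMP system and of AKAP9's surroundings were listed, of which 64 had probe sets, 119 in all. None passed the adjusted threshold (0 of 119, limma), and 4 (3.36%) had an unadjusted p under 0.05, 1 higher and 3 lower in the mice labelled null, against 3.67% of all probe sets. With each gene read by its brightest probe set, 31 genes were higher and 33 lower, with a median difference of 0.00, while 50.2% of all probe sets were lower. The count moved with single mice, and the share of all probe sets moved with it. Leaving out wild type replicate 1 gave 9 (7.56%, 1 higher and 8 lower, against 5.30% of all probe sets), and leaving out null replicate 5 gave 8 (6.72%, all lower, against 7.31%). Leaving out wild type replicate 3 gave 0, against 2.71% of all probe sets. The groups did not overlap at 0 of the 119 probe sets.

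Of 13 measured anchors outside the members, 7 were higher and 6 lower, with a median of 0.02. Wasf1, an actin regulator of spines that also holds the kinase, was at 11.29 in the mice labelled wild type and 11.05 in those labelled null (mean log2, difference -0.24, SE 0.10, limma unadjusted p = 0.0409, adjusted p = 0.999). Ezr, the membrane linker ezrin, differed by -0.20 (SE 0.09, limma unadjusted p = 0.0451). At both the groups overlapped, and the exact permutation test (two-sided) gave p = 0.0635 for Wasf1 and 0.0714 for Ezr. As each mouse was left out, the limma unadjusted p ran from 0.0124 to 0.0976 for Wasf1 and from 0.0154 to 0.111 for Ezr. Akap8l, a relative of Akap8, was at -0.22 (SE 0.13), the dim Akap2 at -0.21 (SE 0.12), and Map2, the dendritic microtubule protein that binds type II subunits, at 0.25 (SE 0.25). The last 3 did not reach an unadjusted limma p of 0.05, and each leaned on single mice. Akap8l was at -0.12 without null replicate 5, Akap2 at -0.12 without null replicate 1, and Map2 between 0.09 (without wild type replicate 2) and 0.41 (without wild type replicate 4). With values under 4 set to 4, Akap2 was at -0.02.

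The protein kinase A inhibitors, small proteins that block the catalytic site, were all measured and none passed. Pkia was at 9.32, 7.96, 9.35, 9.42 and 9.08 in the mice labelled wild type, again lowest in replicate 2. Its difference was 0.33 (SE 0.27, limma unadjusted p = 0.246), and it was 0.07 without that mouse. Pkig was at 0.11 (SE 0.16), with values from -0.03 to 0.21 as each mouse was left out, and Pkib, near the bottom of the scale, at 0.00 (SE 0.09).

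Of 7 adenylyl cyclases, which make cyclic AMP, 4 were higher and 3 lower. The dim Adcy8 was at 0.15 (SE 0.07, limma unadjusted p = 0.0469) and the dim Adcy7 at -0.17 (SE 0.11), which became -0.06 without wild type replicate 2. Of 11 phosphodiesterases, which break it down, 5 were higher and 6 lower. Pde4b, a form abundant in brain, was at 10.05 in the mice labelled wild type and at 9.86 in those labelled null (mean log2, difference -0.19, SE 0.08, limma unadjusted p = 0.0422, adjusted p = 0.999). At Pde4b and Adcy8 the groups overlapped, and the exact permutation test gave p = 0.0794 and 0.0556. As each mouse was left out, the limma unadjusted p ran from 0.00401 to 0.103 for Pde4b and from 0.023 to 0.102 for Adcy8. Among 10 targets of the kinase, 4 were higher and 6 lower. Ppp1r1b, or DARPP-32, a phosphatase 1 inhibitor known from striatal neurons, was at -0.31 (SE 0.15), or -0.19 without wild type replicate 3, and Creb1, dim on this array, at -0.06 (SE 0.11).

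Among 6 measured partners of AKAP9, 2 were higher and 4 lower. The catalytic subunits of phosphatase 1 were at 0.00 (SE 0.08) for Ppp1ca, 0.02 (SE 0.08) for Ppp1cc and -0.29 (SE 0.14, limma unadjusted p = 0.0678) for Ppp1cb. The other 3 Ppp1cb probe sets were at -0.39 (SE 0.23), -0.35 (SE 0.21) and -0.29 (SE 0.21), so that all 4 were lower and none passed. Of 14 centrosome and Golgi genes, 6 were higher and 8 lower. Golga2, a Golgi matrix protein, was at -0.07 (SE 0.04), Pde4dip, or myomegalin, a relative of AKAP9 in structure and place, at 0.02 (SE 0.07), and Cdk5rap2, at the bottom of the scale, at 0.00 (SE 0.04). For Golga2 the limma unadjusted p was 0.0988 and the exact permutation test gave p = 0.0476. It was the 1 pathway probe set under 0.05 in the methods' t-test (unadjusted p = 0.0347, adjusted p = 0.999). After quantile normalization the Golga2 difference was 0.00.

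**Figure D5:**
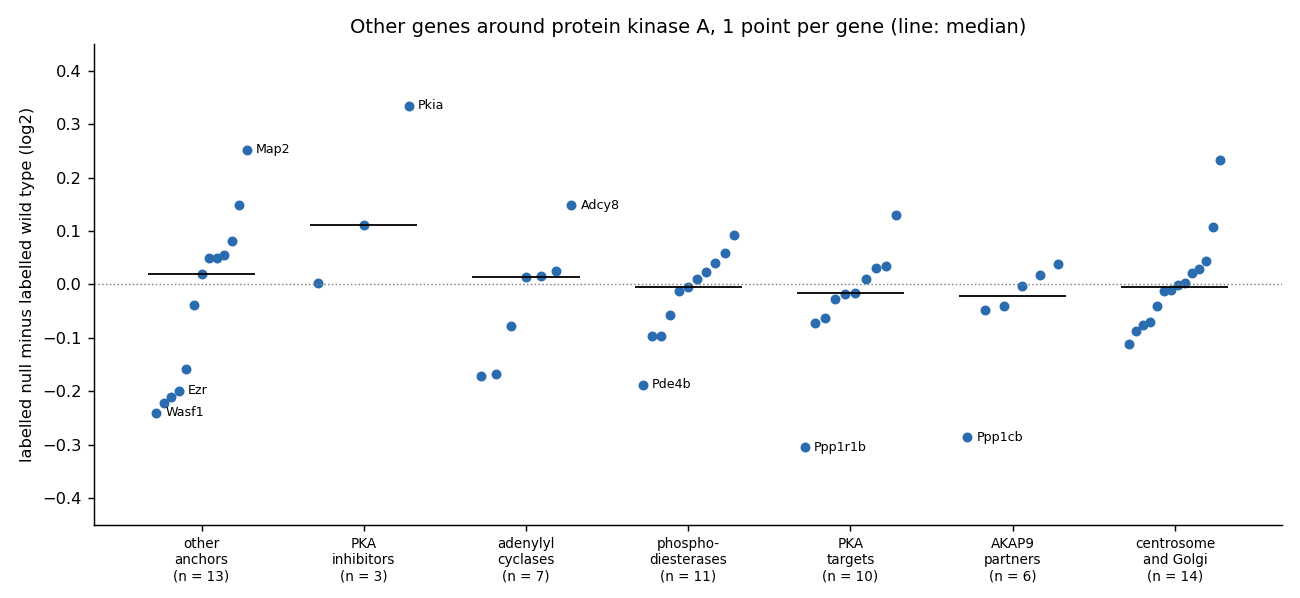
Mean of the mice labelled null minus mean of those labelled wild type (log2, vertical axis) for 64 genes around protein kinase A, by group (horizontal axis), with a point for each gene by its brightest probe set and the group median as a line. Medians lie between -0.02 and 0.11, and single genes run from -0.31 for Ppp1r1b to 0.33 for Pkia.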

How the data were processed

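Expression was measured in 10 cortices on Affymetrix MOE430A 2.0 arrays. The deposited table holds log2 values from GC-RMA (GCRMA in the submitters' processing notes), run by the authors to subtract a GC-dependent background, normalize the arrays and join probes into probe sets. No version of it was found in the sources read. The 64 control probe sets were left out of the tests. The platform annotation gave 1 gene for 20380 probe sets, several for 691 and none for 1555, and 20351 of the first matched the RefSeq table of GRCm38.p6, used for names and chromosomes. Promoters came from the same RefSeq build.

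Groups came from the sample titles. Mice labelled null were compared with those labelled wild type in limma 3.58.1 in R 4.3.3 (lmFit, eBayes) over all 22626 probe sets, with Benjamini-Hochberg adjustment and a threshold of 0.05, no filter and no pairing. Exact permutation tests (two-sided) used scipy 1.17.1. The fit was tested on simulated data. The number of arrays sets the precision. The limma p-values weigh a difference in means against the spread between these mice, which eBayes draws toward a value shared by all probe sets.

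The members and gene lists were chosen with earlier results of these data known. Named genes were all members, the 10 pathway genes with the smallest p, a set of pathway genes named whatever their values (of which Pcnt, Akap5, Akap6, Akap11, Adcy1 and Grin1 had no probe set in the annotation used), and the 5 genes most like Akap9. Ppp1cb's further probe sets and the correlated pairs were added after their values were seen. Alternatives were median centring, quantile normalization, a filter at a mean of 5, a floor at 4, a robust prior that follows intensity, a replicate block, the methods' 2-tailed t-test, and leaving out each array.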

Additional observations from a re-analysis of the deposited data

Results flagged for a closer look

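Of 70 groups of 5 mice looked at over 35 probe sets, 6 held a mouse whose gap to its nearest neighbour took up more of the group's range than Dixon's critical value of 0.71, and about 1 in 20 groups does so by chance. All 6 were in the group labelled wild type. Akap1 1449019_at was at 7.39 in wild type replicate 3, against 7.07 for the nearest mouse. Wild type replicate 2 accounted for 3 of the 6: it was lowest for Akap1 1418279_a_at at 3.14 (nearest 3.31) and for Pkia at 7.96 (nearest 9.08), and highest for Adcy7 at 3.02 (nearest 2.53). Creb1 was at 3.20 in wild type replicate 4 (nearest 2.76), and Cdk5rap2, at the bottom of the scale, at 1.50 in wild type replicate 5 (nearest 1.54).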

How the results depend on the processing

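Under all 17 alternatives, 0 probe sets of the members other than Akap9 passed the adjusted threshold or an unadjusted p of 0.05, and 0 of the other pathway genes passed the adjusted threshold. The count of pathway probe sets at an unadjusted p under 0.05 was 4 (3.36%, against 3.67% of all probe sets). It became 8 with the replicate block (6.72%, against 4.76% of all), 2 with an intensity trend and robust prior (1.68%, against 3.44%), 1 with the methods' t-test (0.84%, against 3.39%), 1 with a floor at 4 (1.54%, against 4.11%) and 0 without probe sets of a mean under 5 (against 4.52%). The filter left 57 pathway probe sets and the floor 65, since those with all values at the floor have no difference to fit. Leaving out an array gave counts from 0 (without wild type replicate 3) to 9 (without wild type replicate 1), with 8 without null replicate 5, 1 without null replicate 2, and 2 without null replicates 3 or 4 or wild type replicates 2, 4 or 5. Over these fits the share of all probe sets ran from 2.63% to 7.31%. The Akap9 difference at 1455151_at ran from -0.74 to -0.44 over left-out arrays and was -0.60 after quantile normalization, and that at 1437082_at ran from -0.23 to -0.15. With the replicate block the Akap9 difference stayed at -0.63. The replicate numbers are not said to mark the littermate pairs, and same-numbered mice had correlated deviations from 0.0664 to 0.535, with 2 of 10 mice correlating best with their own number, so the block is given as a setting only.

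Of the 33 other named probe sets, 18 kept their direction under every alternative run, and 15 turned in at least 1, none with an adjusted p under 0.469. After quantile normalization, Akap8 was at 0.04 (1433669_at) and 0.06 (1450983_at), Prkacb 1420611_at at 0.03, Ppp1ca at 0.04 and Pkib at 0.00. Over left-out arrays, the differences that turned ran from -0.03 to 0.08 for Akap1 1418279_a_at, -0.09 to 0.03 for Akap8 1433669_at, -0.07 to 0.05 for Akap8 1450983_at, -0.14 to 0.14 for Prkaca, -0.07 to 0.03 for Prkacb 1420611_at, -0.03 to 0.06 for Prkar1a 1452032_at, -0.05 to 0.23 for Prkar1b 1416754_at, -0.01 to 0.18 for Prkar2a, -0.06 to 0.05 for Pkib, -0.03 to 0.21 for Pkig, -0.01 to 0.01 for Cdk5rap2, -0.01 to 0.06 for Pde4dip, -0.11 to 0.04 for Creb1, -0.04 to 0.06 for Ppp1ca and -0.02 to 0.07 for Ppp1cc. The cause of these changes was not tested.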
